A study of Mus musculus with 21 samples.

Results

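The 9 megakaryocyte and platelet genes described here are Itga2b, Itgb3, Gp1ba, Gp1bb, Gp9, Vwf, Pf4, Plek and Cd9. They were chosen by name, through the Entrez identifiers of a table of 30519 genes, and all 9 were found. RNA was taken from hematopoietic stem cells (HSC) and from the progenitors shared by megakaryocytes and red cells (MEP), both isolated from mouse bone marrow by flow cytometry. Mice carried wild-type Etv6 (WT), the P216L change, the S211I change, or both changes (double mutant). The second change is S211I in the titles and P211I in the genotype field, and the titles are followed here. The labels do not state zygosity, strain, age, sex or how the alleles were made. There were 21 low-input libraries in 8 groups, with n = 3 libraries each except HSC S211I, MEP S211I and MEP WT (replicates 1 and 3), where n = 2. Nothing in the labels ties a library to its own animal, and the p-values therefore reflect only how far these libraries differ, which may be technical.

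Megakaryocytes arise from progenitors they share with red cells and shed platelets into the blood. Itga2b and Itgb3 encode the αIIb and β3 chains of the integrin that binds fibrinogen and links activated platelets to each other. Gp1ba, Gp1bb and Gp9 encode the α, β and IX chains of the receptor complex that catches von Willebrand factor, the product of Vwf, on a damaged vessel wall. Pf4 encodes platelet factor 4, a chemokine stored in alpha granules. Plek encodes pleckstrin, a major protein kinase C substrate of platelets that is also made in other blood cells, and Cd9 encodes a tetraspanin abundant on platelets and present on many other cells. ETV6 is an ETS-family transcriptional repressor needed for hematopoietic stem cell survival and for platelet production, and inherited ETV6 variants lower platelet counts in people.

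Promoter sequences are shown for Plek, Cd9 and Itga2b, which had an unadjusted p under 0.05 in double-mutant MEP against WT (described further on), and for Gp1ba, which did not, since ETS-family and GATA-family factors are the regulators best known at megakaryocyte promoters. Each is the 250 bases before the annotated start, 5′ to 3′ on the gene's strand, from RefSeq on GRCm38.p6. They lie at chr11:17008719-17008968 (minus strand) for Plek, chr6:125494761-125495010 (minus) for Cd9, chr11:102469884-102470133 (minus) for Itga2b and chr11:70638872-70639121 (plus) for Gp1ba. Capitals mark the ETS core GGAAG, the GATA core GATAA, and their reverse complements CTTCC and TTATC.
Plek: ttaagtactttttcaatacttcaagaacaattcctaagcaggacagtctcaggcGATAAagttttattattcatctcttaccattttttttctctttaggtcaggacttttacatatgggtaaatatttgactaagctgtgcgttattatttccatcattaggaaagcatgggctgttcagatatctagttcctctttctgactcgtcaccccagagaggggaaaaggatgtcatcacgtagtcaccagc
Cd9: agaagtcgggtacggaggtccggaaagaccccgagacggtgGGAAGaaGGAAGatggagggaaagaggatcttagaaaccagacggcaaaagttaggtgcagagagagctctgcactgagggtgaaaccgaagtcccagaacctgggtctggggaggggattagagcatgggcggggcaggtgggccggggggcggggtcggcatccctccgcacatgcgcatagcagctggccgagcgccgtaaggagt
Itga2b: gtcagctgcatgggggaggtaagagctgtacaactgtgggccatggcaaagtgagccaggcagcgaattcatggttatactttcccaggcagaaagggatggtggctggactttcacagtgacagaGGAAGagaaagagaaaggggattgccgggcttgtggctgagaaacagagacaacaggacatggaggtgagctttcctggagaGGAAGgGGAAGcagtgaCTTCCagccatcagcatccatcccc
Gp1ba: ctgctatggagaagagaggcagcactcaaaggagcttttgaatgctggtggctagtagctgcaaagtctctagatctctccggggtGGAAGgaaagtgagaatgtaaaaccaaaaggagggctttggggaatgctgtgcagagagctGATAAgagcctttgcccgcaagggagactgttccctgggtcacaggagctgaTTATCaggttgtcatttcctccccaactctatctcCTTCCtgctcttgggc

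A promoter was found for 7 of the 9 genes, Itgb3 and Vwf being the other two. The ETS core, on either strand, was in 6 of the 7, in all but Plek, against 63.6% of 27025 promoter windows of the same length. Itga2b held 4 matches, more than any other of the 7. The GATA core was in 3 of the 7 (Gp9, Plek and Gp1ba) against 23% of all windows. The longer ETS motif CCGGAAGT, which contains the ETS core, was in 0 of the 7 and in 2.93% of all windows. These matches are descriptions of the letters only.

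Depth differed widely between the libraries. Of the 11 HSC libraries, 10 held 151216 to 2250654 counts, so 3 counts in a library stood for 1.333 to 19.84 CPM (the count scaled by the library total). The MEP libraries held 3387389 to 12130358 counts, where 3 counts stood for 0.2473 to 0.8856 CPM. The library labelled HSC S211I replicate 2 stood apart, with 13154016 counts. Its log expression correlated with the MEP mean at r = 0.98 across 12248 genes, which are not independent replicates. The remaining HSC libraries reached 0.4 to 0.722, and each MEP library 0.983 to 0.993. The summed level of 18 stem cell markers was 1312 CPM in it, against 2024 to 5633 in the other HSC and 687.2 to 1021 in MEP. It is kept under its label, and its values are given apart from those of the other HSC libraries. The HSC fit and the fit of all libraries include it in the HSC S211I group, unless it is said to be left out. The 9 genes are also few in reads: their summed level was 59.09 to 1071 CPM in the other 10 HSC libraries, 127.1 in S211I replicate 2 and 38.88 to 83.55 in MEP.

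The number of the 9 genes with any count varied within each HSC genotype. WT HSC libraries held 3, 6 and 6 of them, P216L libraries 1, 6 and 5, S211I replicate 1 held 4, and double-mutant libraries 8, 3 and 1. All 9 had counts in S211I replicate 2, and 8 or 9 had counts in each MEP library. Total counts alone did not order the HSC libraries, since the double-mutant library with 2250654 counts held only Cd9 and the one with 1559513 counts held 8 genes. Over the whole table, P216L replicate 1 had counts for 3988 genes at a total of 406024. Double-mutant replicate 2 had counts for 7871 genes at a total of 369439. For a gene at 0, the 3-count value above is the level it could still have, counting error only.

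**Figure D1:**
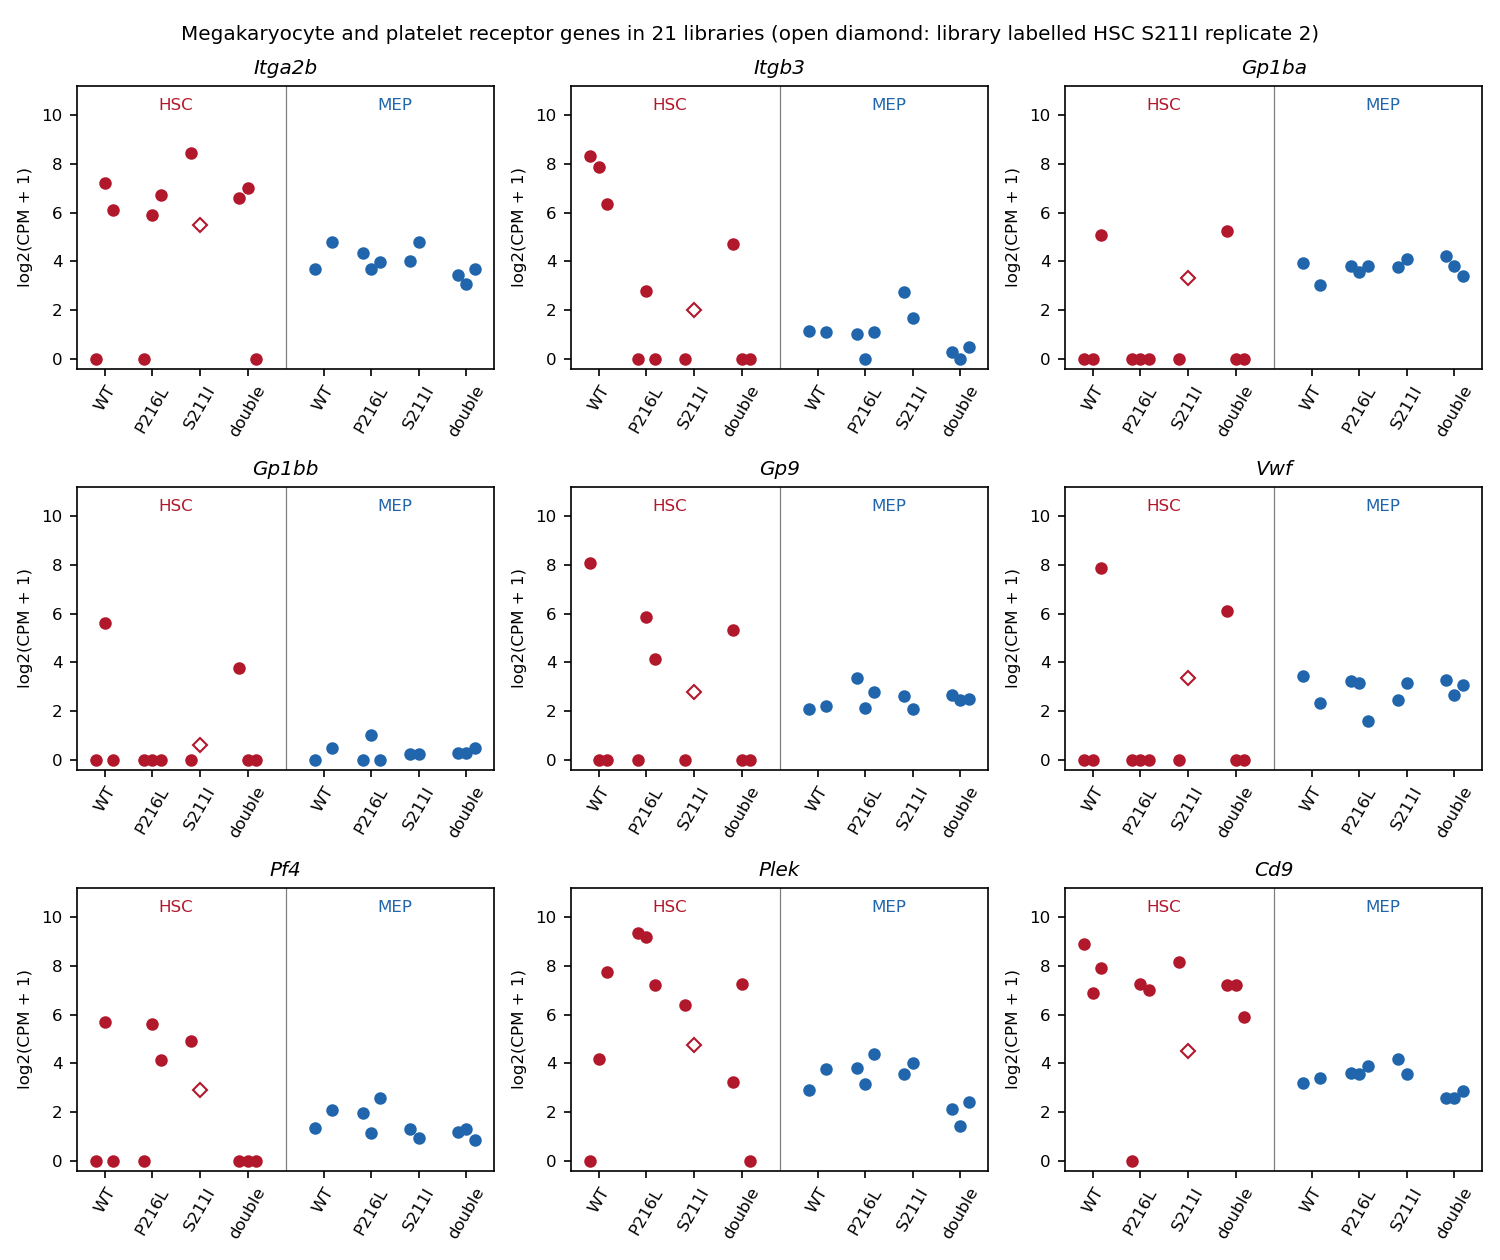
Level of each of the 9 genes (1 panel per gene, y axis log2 of CPM + 1) in the 21 libraries (1 point each), by Etv6 genotype on the x axis, HSC in red on the left and MEP in blue on the right, with an open diamond for the library labelled HSC S211I replicate 2. Each gene has HSC libraries at 0 beside others well above the MEP points, and all MEP points are at 27.12 CPM or less.

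**Figure D2:**
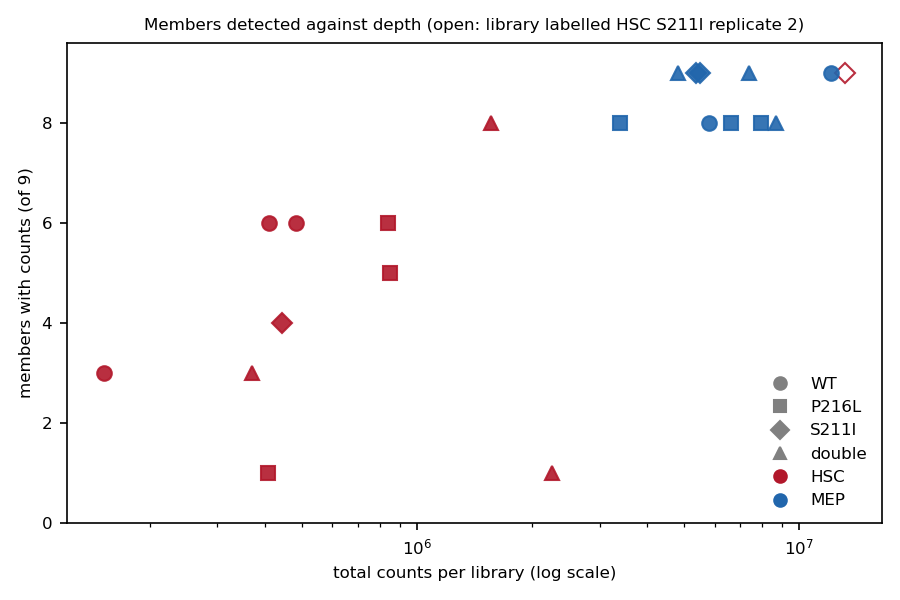
Number of the 9 genes with at least 1 count (y axis) against the library's total count (x axis, log scale), 1 point per library, coloured by cell type and shaped by genotype, with an open symbol for HSC S211I replicate 2. All 10 MEP libraries hold 8 or 9 genes, and HSC libraries hold 1 to 8 apart from S211I replicate 2, which holds 9.

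Between genes, levels are compared in CPM per kilobase of transcript. In the 10 MEP libraries the order of the medians was Cd9 (8.333, range 4.067 to 14.01), Gp9 (5.165, 3.72 to 10.45), Gp1ba (4.802, 2.616 to 6.526), Itga2b (3.899, 2.148 to 7.891), Pf4 (2.547, 1.381 to 8.535), Plek (2.321, 0.422 to 4.895), Vwf (0.8644, 0.2339 to 1.116), Itgb3 (0.187, 0 to 1.002) and Gp1bb (0.09475, 0 to 0.5071). The ranges of neighbours overlapped at every step of this order. The ends did not: Vwf stayed below every Cd9, Gp9, Gp1ba, Itga2b and Pf4 value, and every Gp1ba value was above every Gp1bb value. In the 10 HSC libraries other than S211I replicate 2 the medians were 120.1 for Cd9, 28.28 for Plek, 24.08 for Itga2b and 0.516 for Itgb3, and 0 for the other 5 genes.

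The integrin chains differed in pattern. Itga2b (Entrez 16399, chromosome 11), the αIIb chain that also marks early progenitors, stood at 0, 146.2 and 68.69 CPM in WT HSC, 0, 58.5 and 104.7 in P216L HSC, 346.1 in S211I replicate 1, and 96.83, 127.2 and 0 in double-mutant HSC. S211I replicate 2 held 44.78. One library was at 0 in each of the 3 genotypes with 3 libraries, and the genotypes overlapped. WT MEP held 11.93 and 27.12 CPM, P216L MEP 19.16, 11.78 and 14.76, S211I MEP 15.33 and 26.95, and double-mutant MEP 9.988, 7.384 and 12.04. The highest double-mutant value lay just above the lowest WT and P216L values.

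Itgb3 (Entrez 16416, chromosome 11), the β3 chain, had its highest values in HSC WT, at 317.4, 231.5 and 81.18 CPM (39 to 95 counts a library). In the mutant HSC it was 0, 5.969 and 0 in P216L, 0 in S211I replicate 1, 3.041 in S211I replicate 2, and 25.65, 0 and 0 in double-mutant HSC. The 3 WT libraries lay above all 8 mutant libraries. WT MEP held 1.21 and 1.154 CPM, P216L MEP 1.009, 0 and 1.181, S211I MEP 5.797 and 2.185, and double-mutant MEP 0.208, 0 and 0.406, which is 0 to 31 counts a library. Both S211I values were the highest of the MEP libraries, and all 3 double-mutant values lay below the WT values but not below the zero in P216L.

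The 3 chains of the GPIb-IX complex were sparse in HSC, and all but Gp1bb were present in every MEP library. Gp1ba (Entrez 14723, chromosome 11) had counts in 2 of the 10 HSC libraries, 33.3 CPM in WT replicate 3 and 36.55 in double-mutant replicate 1, with 8.971 in S211I replicate 2. WT MEP held 14.52 and 7.09 CPM, P216L MEP 13.11, 11.03 and 12.99, S211I MEP 12.53 and 16.2, and double-mutant MEP 17.69, 13.04 and 9.607. These 4 groups overlapped. Gp1bb (Entrez 14724, chromosome 16) had at most 7 counts in a MEP library and was at 0 in 3 of them. In HSC it reached 48.74 CPM in WT replicate 2 and 12.82 in double-mutant replicate 1, and 0.532 in S211I replicate 2. Gp1bb overlaps Septin5 in the annotation, so reads may be split between the pair in a way that cannot be checked here.

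Gp9 (Entrez 54368, chromosome 6) held 271.1 CPM in 1 HSC WT library and 0 in the other two, 0, 57.3 and 16.47 in P216L, 0 in S211I replicate 1, 6.006 in S211I replicate 2, and 39.12, 0 and 0 in double-mutant HSC. WT MEP held 3.285 and 3.627 CPM, P216L MEP 9.203, 3.323 and 5.904, S211I MEP 5.236 and 3.277, and double-mutant MEP 5.41, 4.5 and 4.601. P216L and S211I each overlapped WT, with P216L replicate 1 the highest, and all 3 double-mutant values lay above both WT values and within the P216L range.

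Vwf (Entrez 22371, chromosome 6) and Pf4 (Entrez 56744, chromosome 5) were each seen in a minority of HSC libraries. Vwf was at 233.1 CPM in WT replicate 3, 67.97 in double-mutant replicate 1, 9.275 in S211I replicate 2 and 0 in the other 8. WT MEP held 9.855 and 4.122 CPM, P216L MEP 8.32, 8.005 and 2.066, S211I MEP 4.488 and 7.83, and double-mutant MEP 8.739, 5.423 and 7.442, with all genotypes overlapping. Pf4 was at 51.18 CPM in WT replicate 2, 47.75 and 16.47 in P216L replicates 2 and 3, 29.41 in S211I replicate 1, 6.462 in S211I replicate 2 and 0 in all 3 double-mutant libraries. WT MEP held 1.556 and 3.298 CPM, P216L MEP 2.9, 1.208 and 5.019, S211I MEP 1.496 and 0.91, and double-mutant MEP 1.248, 1.5 and 0.812. The MEP values are 5 to 40 counts a library. P216L overlapped every other genotype, while the S211I and double-mutant values all lay below both WT values.

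Plek (Entrez 56193, chromosome 11) was high in the HSC libraries labelled P216L, at 650.2, 589.7 and 148.2 CPM. It was 0, 17.06 and 212.3 in WT, 83.71 in S211I replicate 1, 26.15 in S211I replicate 2, and 8.336, 153 and 0 in double-mutant HSC. P216L overlapped WT and the double mutant only through its lowest library. WT MEP held 6.57 and 12.78 CPM, P216L MEP 13.11, 8.005 and 20.07, S211I MEP 11.03 and 15.11, and double-mutant MEP 3.329, 1.731 and 4.33. Every double-mutant value was below the other 7.

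Cd9 (Entrez 12527, chromosome 6) was the most widely detected of the 9, at 0 in 1 library only. In HSC it was 482.8, 119.4 and 243.5 CPM in WT, 0, 151.6 and 127 in P216L, 285.1 in S211I replicate 1, 21.89 in S211I replicate 2, and 148.8, 146.2 and 59.09 in double-mutant HSC. WT MEP held 8.299 and 9.563 CPM, P216L MEP 11.09, 11.03 and 13.88, S211I MEP 17.2 and 10.9, and double-mutant MEP 4.994, 5.077 and 6.36, again below the other 7. The noncoding genes Gm28809 and Gm26728 overlap Cd9, and the counting is not stated to use strand, so their reads cannot be told apart from its own.

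Across cell types, 3 of the 9 genes were lower in MEP and none was higher. The comparison took MEP against HSC over WT, P216L and the double mutant, 8 against 9 libraries, in one edgeR quasi-likelihood fit of all 21 libraries with Benjamini-Hochberg adjustment over 12036 genes. Of all genes tested, 6% were lower and 16.2% higher at an adjusted p under 0.05, 22.2% in either direction. Before adjustment, 4 of the 9 and 34.8% of all genes had a p under 0.05. Cd9 averaged 8.802 CPM in MEP and 164.3 in HSC, and was 12.98-fold lower in the fit (log2 fold change −3.70 ± 0.87, SE, adjusted p = 0.00465). Plek averaged 8.845 against 197.7 CPM (−3.60 ± 1.02, adjusted p = 0.0137), and Itgb3 0.7056 against 73.53 (−4.30 ± 1.25, adjusted p = 0.0158). The fitted fold changes of this comparison are means of the log2 fold changes in the 3 genotypes, after scaling. They are not ratios of the CPM averages and differ from them. Gp1ba, the other of the 4 with an unadjusted p under 0.05, went the opposite way, at 12.21 CPM in MEP and 7.762 in HSC. Its adjusted p was 0.124, and no fold is given because HSC P216L was at 0. The median log2 fold change was −1.849 over the 9 genes and 0.732 over all genes. The 9 include Gp1ba, Gp1bb, Vwf and Pf4, each with an HSC group at 0, so their places in that ranking are not well set.

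These calls depended on each of the 2 WT MEP libraries, and leaving out either one leaves 1 library in that group. Most or all of the 3 calls were then lost, and fewer genes of the whole table were called, both higher and lower. The log2 fold changes were −3.53 for Cd9, −3.32 for Plek and −4.18 for Itgb3 without MEP WT replicate 1. Without replicate 3 they were −3.68 for Plek and −4.19 for Itgb3. The Itgb3 call was also lost without HSC P216L replicate 2 and without HSC double-mutant replicate 1. In each case the HSC libraries left in that group were at 0, so no fold is given. Plek was at −2.365 without HSC double-mutant replicate 2 (edgeR, adjusted p = 0.0578) and at −2.519 without HSC WT replicate 3 (adjusted p = 0.0461). Between the WT groups alone none of the 9 passed in edgeR (4.1% of all genes did) and 3 had an unadjusted p under 0.05 (27.8% of all genes did). The log2 fold changes of those 3 were −6.66 ± 2.59 for Itgb3, −5.41 ± 2.61 for Gp1bb and −4.22 ± 1.69 for Cd9 (edgeR, adjusted p = 0.102, 0.178 and 0.11). DESeq2 and voom each called 2 of the 9 between the WT groups, both lower in MEP. Of 12036 genes, DESeq2 called 911 lower and 1211 higher, and voom 650 lower and 1214 higher. In no gene of the 9 did all 10 HSC libraries lie above all 10 MEP libraries, a pattern that 0.947% of genes showed. In bulk RNA, fewer cells of a type and less RNA per cell cannot be told apart.

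Scaling changed the size of the cell type difference but not its direction for Cd9, Plek and Itgb3. With relative log expression (RLE) size factors the median of all genes was 0.313, against 0.732 with trimmed means (TMM), and the split of higher to lower calls was 1216 to 880 against 1946 to 722. Cd9, Plek and Itgb3 were then at −4.17, −4.11 and −4.79 and all 3 passed, while 2 of the 9 genes had a positive fold change in place of 3. Markers of other cells also differed between the cell types. Neutrophil and monocyte markers summed to 299.8 to 4952 CPM in the 10 HSC libraries and 6.051 to 212.5 in MEP, with Ctsg and Csf1r at 0 in all 10 HSC libraries. Endothelial and stromal markers summed to 2.388 to 13220 and 31.23 to 79.49 CPM. Their part in the result was not tested.

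Among MEP genotypes, the double mutant held the lowest Plek and Cd9 values of the 10 libraries. Plek averaged 3.13 ± 1.31 CPM (SD, n = 3) in it, against 9.67 ± 4.39 (n = 2) in WT, 13.7 ± 6.06 (n = 3) in P216L and 13.1 ± 2.89 (n = 2) in S211I. Cd9 averaged 5.48 ± 0.766, against 8.93 ± 0.894, 12 ± 1.63 and 14.1 ± 4.45. For these 2 of the 8 genes tested, all 3 double-mutant libraries lay below the other 7, as they did for 0.928% of all genes tested. Gp1bb fell below the count filter in the HSC fit and in the MEP fit, so 8 of the 9 were tested there.

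Against P216L, Plek was 4.322-fold lower in the double mutant (log2 fold change −2.11 ± 0.41, SE, edgeR, adjusted p = 0.0465). Of the 8 it alone passed, where 0.102% of all genes were lower and 0.111% changed in either direction. Before adjustment, 2 of the 8 and 4.27% of all genes had a p under 0.05. Cd9 was at −1.11 ± 0.30 (adjusted p = 0.398) in the same comparison. The Plek call sat at the threshold: without any one of 5 of the 6 libraries compared the adjusted p rose to between 0.0774 and 0.376, and P216L replicate 2 was the exception. With library totals as the only scaling it was 0.0511. The log2 fold change stayed between −2.475 and −1.759 across all 13 alternatives.

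Against WT none of the 8 passed in the double mutant, where 0.102% of all genes did, nor did any with DESeq2 or voom. At an unadjusted p under 0.05 it was 3 of the 8 against 5.24% of all genes. Plek was at −1.67 ± 0.44, Itga2b at −1.03 ± 0.35 and Cd9 at −0.72 ± 0.33 (edgeR, adjusted p = 0.331, 0.69 and 0.94). Without the count filter Plek had an adjusted p of 0.0172, and without MEP WT replicate 3 Itga2b was at −0.31. Against S211I none of the 8 passed in edgeR either, where 0.139% of all genes did, while DESeq2 and voom each called 1. At an unadjusted p under 0.05 it was 4 of the 8 against 7.62% of all genes. Plek was at −2.05 ± 0.44, Cd9 at −1.33 ± 0.33, Itgb3 at −4.20 ± 1.15 and Itga2b at −1.08 ± 0.35 (adjusted p = 0.0904, 0.23, 0.316 and 0.458). Plek passed in 5 of 12 alternatives of that comparison, with adjusted p from 0.000503 to 0.436. The 3 comparisons share the double-mutant libraries.

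**Figure D3:**
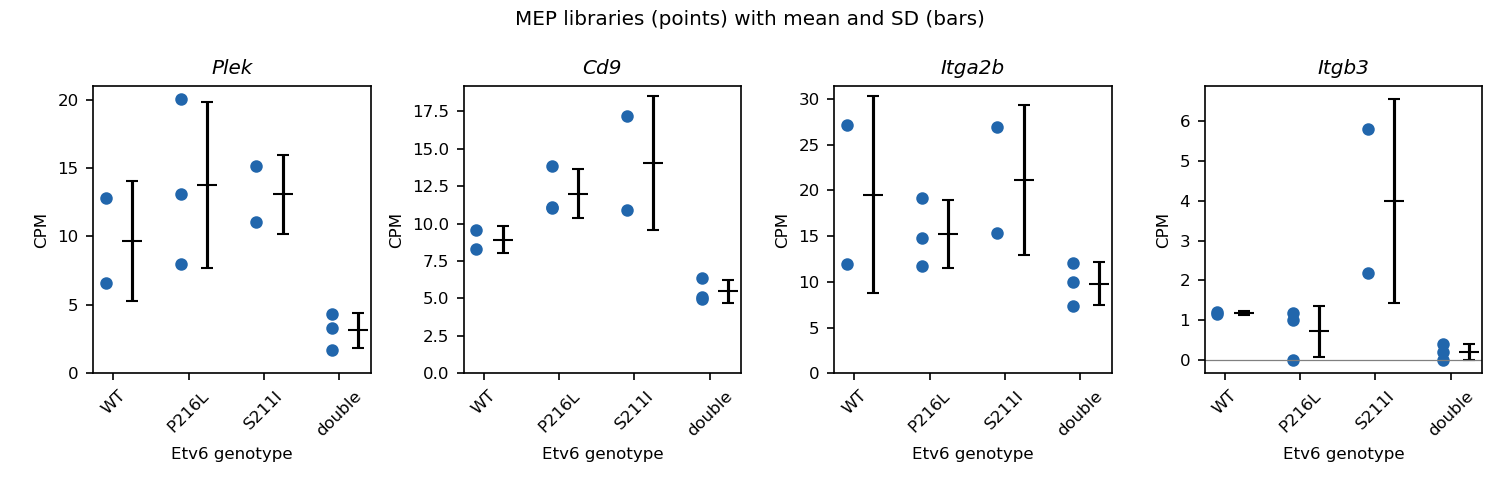
Level in CPM (y axis) of Plek, Cd9, Itga2b and Itgb3 in each MEP library (points), by Etv6 genotype (x axis), with the group mean and SD as black bars (n = 2 or 3). The double-mutant points are the lowest for Plek (1.731 to 4.33) and Cd9 (4.994 to 6.36), and overlap the P216L points for Itga2b and Itgb3.

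Neither single mutant had a call against WT in MEP among the 8 genes, with edgeR, DESeq2 or voom, nor in edgeR over all genes (0% in both). For P216L the 8 log2 fold changes ran from −0.776 to 0.813 with SE from 0.328 to 1.07, and for S211I from −1.066 to 1.709. At an unadjusted p under 0.05 it was 0 of the 8 in each, against 5.12% of all genes for P216L and 4.74% for S211I. In the double mutant against WT, the receptor chains Gp1ba and Gp9 were at 0.31 ± 0.34 and 0.46 ± 0.50, Vwf at 0.05 ± 0.50, Pf4 at −1.06 ± 0.77 and Itgb3 at −2.49 ± 1.20, none of which passed (edgeR, adjusted p = 0.952 to 0.999).

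**Figure D4:**
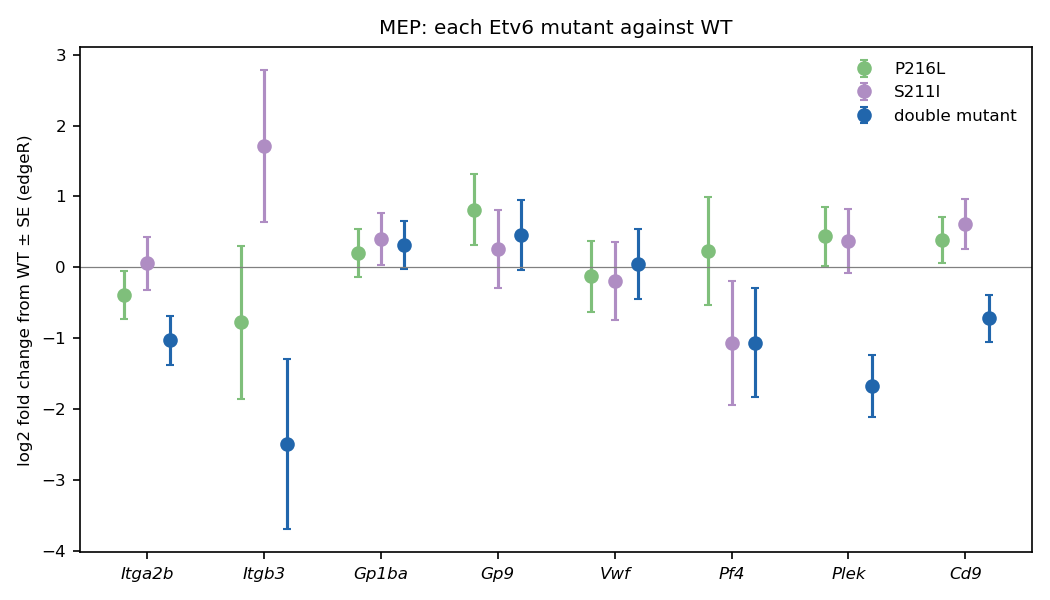
log2 fold change from WT ± SE (edgeR) in MEP for the 8 genes tested, by mutant. The double mutant (blue) is below 0 for Itga2b, Itgb3, Pf4, Plek and Cd9, and P216L and S211I lie within −1.066 to 1.709.

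Marker sums of other cells are given beside these values. In MEP the neutrophil and monocyte list summed to 6.051 to 25.68 CPM in WT, 47.83 to 212.5 in P216L, 35.99 to 110.7 in S211I and 42.3 to 89.71 in the double mutant. The stem cell list stood at 727.5 to 905.5, 687.2 to 992.7, 964.5 to 1021 and 700 to 924. Its 11 genes tested had a median log2 fold change of −1.22 in the double mutant against P216L (4 positive), −1.09 against S211I (2 positive) and −0.26 against WT (3 positive), none of them called, beside −0.0022, 0.0025 and 0.0053 over all genes. The lymphoid list was 15.61 to 22.38 in the double mutant and 21.96 to 49.69 in the other MEP libraries, and the endothelial and stromal list 69.28 to 79.49 against 31.23 to 54.91. Ly6c2 was at 0 in both WT libraries, and Cdh5 in all 3 double-mutant libraries. Their part in the result was not tested.

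In HSC, Itgb3 was the gene of the 9 whose WT libraries lay above every mutant library. This held for 1 of the 8 tested, against 1.47% of all genes. None of the 8 passed in any mutant against WT with edgeR, DESeq2 or voom, where edgeR called 0.106% of all genes in P216L, 0.0845% in S211I and 0.0739% in the double mutant. Of 9471 genes, DESeq2 called 178, 77 and 134 higher and 122, 20 and 44 lower in the same order. The voom fit called 29, 453 and 151 higher and 7, 90 and 25 lower. At an unadjusted p under 0.05 in edgeR it was 2, 0 and 1 of the 8, against 12.9%, 8.15% and 10.5% of all genes. Without S211I replicate 2 the count of the 9 genes that passed was still 0 in each, and edgeR called 9, 2 and 6 genes of the whole table in place of 10, 8 and 7. Itgb3 was at −6.31 ± 3.05 in P216L (edgeR, adjusted p = 0.376). Vwf in P216L and Pf4 in the double mutant, each at 0 in all 3 mutant libraries, had adjusted p of 0.372 and 0.468. Only 1 WT library held Vwf counts and only 1 held Pf4 counts. The SE of the log2 fold changes was 1.585 or more throughout. Plek in P216L averaged 463 ± 274 CPM against 76.5 ± 118 in WT (n = 3 each), a difference that did not pass (2.47 ± 1.65, edgeR, adjusted p = 0.573).

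**Figure D5:**
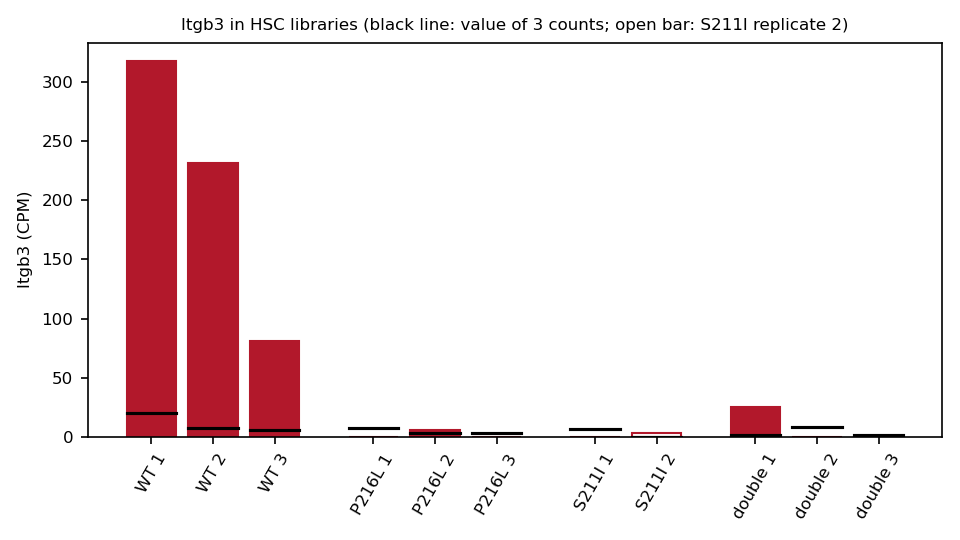
Itgb3 level in CPM (y axis) in each of the 11 HSC libraries, with a black line at the value of 3 counts in that library and an open bar for S211I replicate 2. WT libraries reach 81.18 to 317.4 and the mutant libraries 0 to 25.65.

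The WT and mutant HSC libraries also differed in other markers. Erythroid markers summed to 5074 to 7446 CPM in WT and 9306 to 43960 in the 7 mutant libraries other than S211I replicate 2, with Slc4a1, Cldn13 and Icam4 at 0 in all 3 WT libraries. Stem cell markers summed to 4973 to 5633 in WT, 2024 to 4581 in P216L, 5210 in S211I replicate 1 and 2377 to 4396 in the double mutant. Endothelial and stromal markers (endothelial cells can also express Itgb3) summed to 456.3 to 1565 in WT and 2.388 to 13220 in the same 7 mutant libraries. The part of these in the Itgb3 values was not tested.

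The mutant effects were then compared between cell types. None of the 9 passed in edgeR for P216L, S211I or the double mutant, where 0.0997%, 0% and 0.0166% of all genes did. An unadjusted p under 0.05 was found for 3, 1 and 1 of the 9, against 16.2%, 10.6% and 15.2% of all genes. The S211I effect on Itgb3 was more positive in MEP than in HSC by 7.76 ± 3.24 on the log2 scale (edgeR, adjusted p = 0.41), and DESeq2 gave 8.59 with an adjusted p of 0.0395. Without HSC S211I replicate 2, which leaves 1 HSC S211I library at 0 for Itgb3, its adjusted p was 0.498. The unadjusted hits for P216L were Gp1ba, Gp1bb and Vwf and for the double mutant Pf4, each with an HSC group at 0.

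Other genes of the platelet pathway gave no call in any mutant comparison within a cell type, in 4 lists of 30 receptors, 16 alpha granule genes, 20 signalling genes and 15 transcription factors, where at most 0.139% of all genes passed. In that order, 17, 10, 17 and 15 of them were tested in HSC and 13, 10, 18 and 15 in MEP. The rest fell below the count filter and could not be called. Between MEP and HSC over the 3 genotypes, 2 of 19 receptors tested were higher (P2ry1 and Gp5) and 8 were lower, beside 16.2% higher and 6% lower over all genes, shares against which the counts of the other lists are also to be read. P2ry1 was at 0 in every WT and double-mutant HSC library, but averaged 46.5 CPM in P216L HSC against 20.51 in P216L MEP. Gp5 averaged 0.8124 CPM in WT HSC and 3.536 in double-mutant HSC, but 71.42 in P216L HSC against 62.24 in P216L MEP. The lower receptors included the junctional adhesion genes F11r, at 0.6326 CPM in MEP and 160 in HSC (−7.42 ± 1.41, edgeR, adjusted p = 0.00106), and Esam, at 0.5705 and 91.01 (−6.88 ± 1.29, adjusted p = 0.00103). Among 13 alpha granule genes tested, Mmrn1 (multimerin) and Sparc were lower, Mmrn1 at −7.31 ± 0.68. Among 18 signalling genes, Plcg2, Lat and Lcp2 were lower. Of the 15 transcription factors, Gfi1b (1.53 ± 0.36), Gata1 (2.14 ± 0.59) and Tal1 were higher, and 5 were lower, among them Meis1, Fli1 (−4.56 ± 0.78), Etv6 and Mef2c. The list medians were −2.387, −0.304, −0.1256 and −0.8438 in that order, beside 0.732 for all genes.

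Across the 10 MEP libraries, the genes whose log2 CPM most resembled the mean of the 8 tested genes were Ddx60 (r = 0.901), Spon2 (0.898), Srrm1 (0.886), Flt3 (0.883) and Ankrd11 (0.865), out of 10765 searched. Within the set, Plek followed the mean of the others most closely (r = 0.766), then Itgb3 (0.668), Cd9 (0.624) and Itga2b (0.536), while Gp1ba (−0.0955) and Vwf (−0.427) did not. Across the 10 HSC libraries without S211I replicate 2 the most similar were Csad (0.923), Rabac1 (0.898), Sugp2 (0.897), Selenot (0.889) and Cracr2b (0.877), out of 11109. These correlations share libraries and depth and are descriptions.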

How the data were processed

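The labels give NucleoSpin RNA XS extraction and SMART-Seq v4 Ultra Low Input libraries from sorted cells. The deposited values are estimated counts for each Entrez gene. The authors' tools were Salmon and FastQC and the build GRCm39, per the submitters' processing notes, without versions. Of the nonzero values, 6.09 to 33.1% per library were not whole, and all were rounded for the tests. Symbols came from an annotation of GRCm38.p6 for 30211 of 30519 genes.

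HSC, MEP and all libraries were fitted apart with edgeR 4.0.16 (quasi-likelihood, robust, TMM; limma 3.58.1, R 4.3.3) after filterByExpr (minimum count 10, minimum total 15), leaving 9471, 10773 and 12036 genes. P-values were adjusted by Benjamini-Hochberg at 0.05 within each of 13 contrasts. SE is the absolute log2 fold change over the square root of F. The biological coefficient of variation was 1.6, 0.174 and 1.06, and the fit of all libraries assumes a common spread for HSC and MEP. CPM uses library totals. Scripts were tested on simulated data. Copies of a library were looked for within groups: chi-square per degree of freedom was 4.63 to 88.2 over 18 pairs, so none was counted as a copy.

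The genes and lists were chosen with earlier results of these data known. All 9 genes are named; a fold, SE and p are given where p was under 0.05 before or after adjustment, and otherwise ranges, apart from Plek in HSC P216L and 5 genes in double-mutant MEP against WT, added after their values were seen. From other lists at most 5 genes per comparison are named with values, by smallest p; some genes of these lists are not reported here. Alternatives were RLE factors, library totals, no filter, replicate block, DESeq2 1.42.0, voom, fits of only the groups compared, thinning to 151214 counts, and each library left out.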

Additional observations from a re-analysis of the deposited data

How the results depend on the processing

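None of the log2 fold changes given by the named-gene rule reversed under the alternatives run, but medians over the tested genes did in comparisons that include HSC libraries: −0.84 for S211I against WT became 1.61 with the replicate block, 1.21 for the S211I effect between cell types became −0.72 without HSC WT replicate 3, and 1.59 for the double-mutant effect became −0.02 when thinned and −0.0055 without HSC WT replicate 3. Recomputed counts of the 9 genes called matched the report's within 1.5 times in 181 cases and did not in 19. Most matches were 0 against 0. The report's count was above 0 only for MEP double mutant against P216L and for MEP against HSC over 3 genotypes. There, 6 of 13 and 24 of 26 alternatives matched. For the MEP double mutant against WT the count was 1 without a low-count filter and 0 otherwise. Against P216L it was 0, not 1, with library totals only and with only the groups compared, and ranged from 0 to 1 with single libraries left out. Against S211I it was 1, not 0, with no filter, the replicate block, DESeq2, voom and only the groups compared. For WT MEP against HSC it was 2 with DESeq2, 2 with voom and 1 with thinned libraries, where 5 of the 9 could be tested. All of these were lower in MEP, as were 911, 650 and 74 genes of the whole table (12036, 12036 and 7259 tested). For MEP against HSC over 3 genotypes the count was 3, all lower in MEP, and ranged from 2 to 4 with single libraries of groups of 3 left out. It fell without either WT MEP library, where 1 library is left in the group. These counts merge both directions. With voom, without HSC WT replicate 3 and without HSC double-mutant replicate 1, 1 of the 9 was higher in MEP, beside 3, 3 and 2 lower. Over all genes, 4180, 2455 and 2219 were higher in these fits. For the S211I effect between cell types the count was 1 with DESeq2, which called 62 genes of the whole table higher and 410 lower.

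No pairing by replicate number was seen: of 27 same-numbered pairs within a cell type, r was −0.121 to 0.226, with 1 over 0.1, and 6 of 21 libraries correlated best with their own number. For 37 same-numbered pairs between cell types, r was −0.0651 to 0.0938. With groups of 2 or 3 libraries this check could miss a pairing. With the replicate block, Plek in MEP double mutant against S211I was at −2.48 (adjusted p = 0.00804). Leaving out HSC S211I replicate 2 altered no count of the 9 genes called. Over all genes, calls for MEP double mutant against P216L ranged from 5 to 47 (12 in the report's fit), for MEP against HSC over 3 genotypes from 1075 to 5309 (2668), and for WT MEP against HSC from 0 to 2122 (493). Where a library was left out of a group of 2, the remaining one was assumed to vary like the other groups. HSC depth limits every HSC value: 3 counts stood for up to 19.84 CPM.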
